A study of Mus musculus with 9 samples.

Results

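The 42 genes described here are a list of DNA repair and damage checkpoint genes, grouped by repair route and found on the array by gene symbol. Of the 42, 39 had at least 1 probe (73 probes of the 25697 on the array) and 34 passed the detection filter, a detection p-value under 0.01 on at least 2 of the 9 arrays. Fanca, Atr and Trp53 are not named in the probe tables used here. Nbn (3 probes), Brca1, Palb2 and Xrcc5 were detected on no array. Ercc2 was detected on 1 gPS array. These 5 genes were not tested, so no count below covers all members of the list. A probe below detection does not show that the RNA is absent. Of the 34 genes tested, 30 were detected on all 9 arrays.

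RNA of mouse stem cells was measured on Illumina bead arrays. The gPS group, germ pluripotent stem cells, consisted of 3 clonal lines sorted for GFP with 1 array per line, so each line descends from 1 clone. The embryonic stem cells (ESC) had 2 arrays, labelled a duplicate, which may be technical. The GSC group, germ stem cells that the labels call unipotent, consisted of 4 lines with 1 array each. Strain, age, culture conditions and the promoter that drives GFP are not given in the sources used here, nor is the GSC line from which each gPS line came. The p-values measure only the spread between these arrays, which for the ESC duplicate may be technical. In RNA from whole cultures, fewer cells of a type and less RNA per cell cannot be told apart.

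Cells repair damaged DNA by several routes. Mismatch repair corrects replication errors, base excision repair removes damaged single bases, and nucleotide excision repair cuts out bulky lesions such as those made by ultraviolet light. Breaks through both strands are joined directly by end joining or copied from the sister chromatid by homologous recombination, and checkpoint kinases halt the cell cycle meanwhile. Embryonic stem cells are known for short gap phases, and germline cells for a low mutation rate.

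The 9 arrays had median raw signals of 83.6 to 101, and 9871 to 11813 probes were detected per array. Of 14 germ cell markers, 13 were detected on all 4 GSC arrays, whereas 9 (Dazl among them) were detected on no gPS array and 10 on no ESC array. Mael, included in both of these counts, was detected on no GSC array either. The mean normalized level of the 13 tested was 4.98 to 5.22 (log2) on gPS arrays, 5.07 to 5.11 on ESC arrays and 9.18 to 9.38 on GSC arrays. The mean over 13 tested pluripotent cell markers was 10.06 to 10.63 in gPS, 10.43 to 10.60 in ESC and 6.15 to 6.64 in GSC, where Nanog, Tdgf1, L1td1 and Fgf4 were detected on no array. GSC 1 and GSC 3 stood apart from the other GSC lines. They correlated at 0.9948 across genes with an SD of their difference of 0.21, against 0.9873 and 0.34 for the ESC duplicate. They also had the highest mean over 10 tested fibroblast and feeder cell markers (7.79 and 7.75), against 6.36 to 6.997 in gPS, 6.28 to 6.40 in ESC, 6.18 in GSC 2 and 5.11 in GSC 4. The summed linear level of that list was 2613 to 3536 in gPS, 2650 to 3227 in ESC and 366.5 to 4131 in GSC. Of its 16 listed markers, 6 were detected on all gPS arrays, 6 on both ESC arrays and 7 on all GSC arrays. Col1a2, Col3a1, Lum, Pdgfra, Pdgfrb and Postn were detected on no gPS or ESC array, and Pdgfrb, Postn and Tagln on no GSC array. Of the 10 tested, 4 had a higher mean in gPS than in GSC and 3 in ESC, so the list mean and sum mix directions. Acta2 averaged 10.26 in gPS, 10.62 in ESC and 7.01 in GSC. Dcn was at 10.32 and 10.18 in GSC 1 and GSC 3, against 5.06 to 5.97 in gPS and ESC. The 4 tested Sertoli cell markers averaged 5.51 to 6.41 in gPS, 6.82 to 6.90 in ESC and 5.84 to 5.94 in GSC, and Sox9 and Amh were detected on no array. These 4 did not move together: Wt1 and Cldn11 were lower in gPS and ESC than in GSC, whereas Rhox5 and Inhbb were higher. Rhox5 averaged 7.57 in gPS, 10.82 in ESC and 4.56 in GSC, so the list average is no measure of Sertoli cell RNA. The mean over 14 proliferation and S phase genes was 10.11 to 10.24 in gPS, 10.22 to 10.37 in ESC and 9.32 to 9.52 in GSC. Ccne1 (changes of 4.22 in gPS and 4.23 in ESC) and Rrm2 (3.16 and 3.33) weigh heavily in it. The median change of the 14 was 0.31 in gPS, with 9 above 0, and 0.47 in ESC, with 10 above 0. The part of fibroblast RNA and of proliferation in the results below was not tested.

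Of the 34 listed repair genes tested, more were lower than higher relative to GSC in both pluripotent groups. Among 104 other repair, translesion synthesis and p53 target genes, described further below, slightly more were higher than lower with the same processing. The p53 target genes gave 7 of those rises and 1 of the falls in gPS, and 6 and 2 in ESC. Without that list, rises did not outnumber falls in either comparison. The list was chosen with earlier results of these data known. In gPS 14 of the 34 genes fell and 3 rose, while 17 did not pass the test (limma's moderated test on log2 levels, Benjamini-Hochberg adjusted p under 0.05 over 9488 genes). These shares, 41.2% lower and 8.82% higher, stand beside 30.8% lower and 25.6% higher among all genes tested, and the share called in either direction was 50% against 56.3% of all genes. The groups did not overlap for 17 of the 34 genes (55.7% of all genes), and 19 had an unadjusted p under 0.05 (61.5% of all genes). In ESC, the counts were again 14 lower, 3 higher and 17 not past the test, beside 29.7% lower, 24.9% higher and 54.5% called among all genes. There, the groups did not overlap for 23 of the 34 genes (69% of all genes), and 19 had an unadjusted p under 0.05 (60% of all genes). Both comparisons use the same 4 GSC arrays and are therefore not independent of each other. The median change of the 34 genes was -0.40 in gPS (all genes -0.07) and -0.36 in ESC (all genes -0.11) on the log2 scale.

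These counts depend on the scaling between arrays. Arrays were also scaled to equal medians over all probes, without quantile normalization. The median change of all genes then moved by -0.32 in both comparisons, to -0.39 in gPS and -0.425 in ESC. Median-scaled changes of single genes below contain this shift unless given relative to the median gene. The repair genes then gave 21 lower and 0 higher in gPS, beside 42.7% lower and 16.2% higher of all genes. In ESC they gave 18 lower and 2 higher, beside 41.3% and 15.6%. Relative to the median gene, the repair genes' median was -0.34 in gPS with quantile normalization and -0.20 with median scaling, and -0.25 and -0.23 in ESC. With GSC 1 and GSC 3 averaged into 1 sample, the counts were 13 lower and 4 higher in gPS and 14 lower and 2 higher in ESC. With both left out, they were 12 lower and 3 higher in gPS and 13 lower and 2 higher in ESC. With the ESC arrays averaged into 1 sample, 10 genes were lower and 1 higher in ESC.

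**Figure D1:**
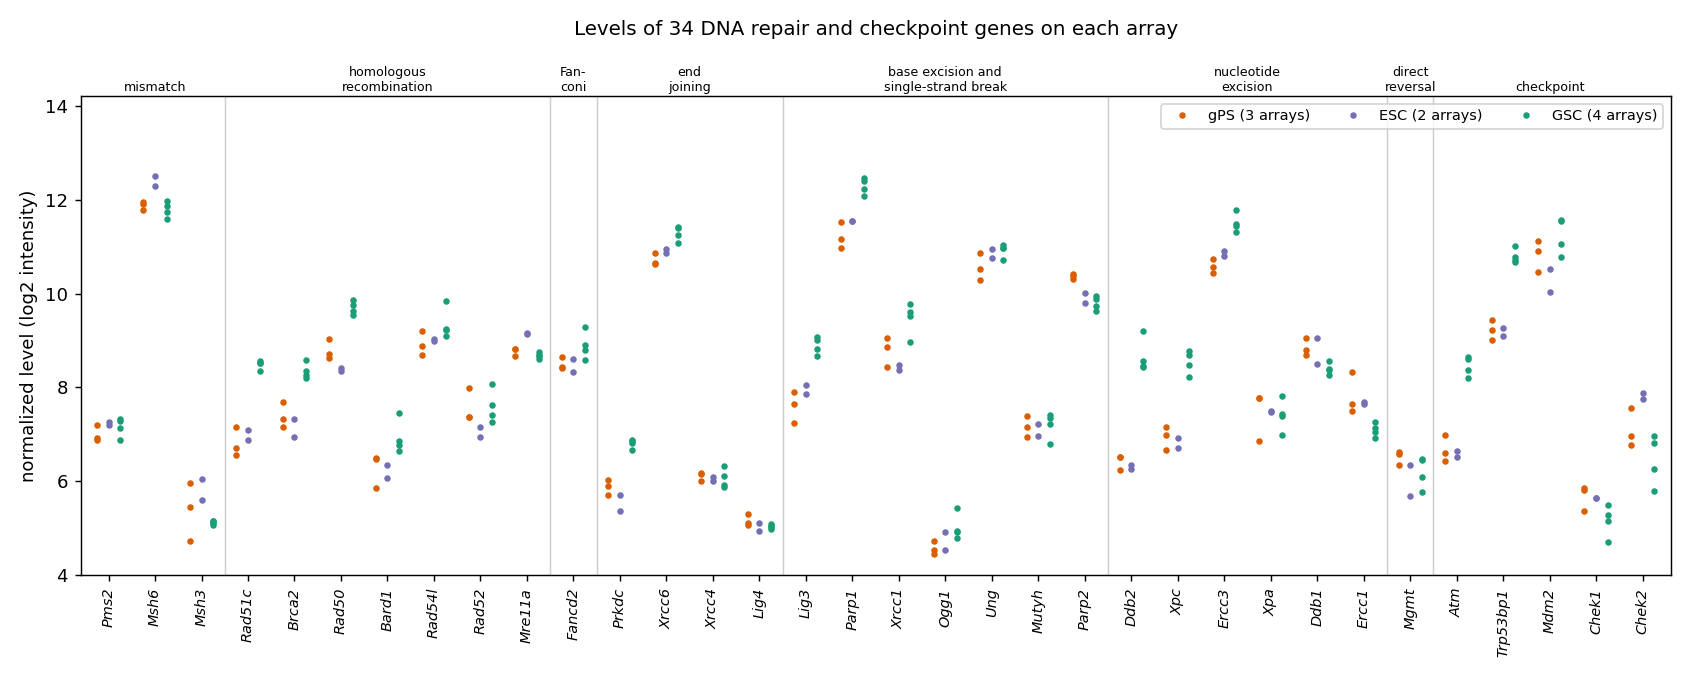
Normalized level (log2 intensity) of the 34 repair and checkpoint genes tested, ordered by repair route, with 1 point per array for gPS (3), ESC (2) and GSC (4). Levels of different genes come from different probes and cannot be ranked against each other. For Ddb2, Xpc, Atm, Rad51c and Trp53bp1 every gPS and ESC point lies below every GSC point.

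Promoter windows of the 250 bases before the start were read for 35 of the 42 genes from RefSeq (build GRCm38.p6), 40 windows in all. Nbn, Rad50, Fancd2, Prkdc, Ercc3, Xpc and Ddb2 had no window. Median GC content was 59.2% and the median number of CpG dinucleotides 18, beside 52.4% and 6 over 32851 windows of the genome. Searched on both strands, the E2F-type motif TTTNNCGC (E2F factors drive S phase genes) was found in windows of 6 genes, 15.0% of the 40 windows beside 4.28% of all windows. The ETS-type motif CCGGAAG was found in 7 genes (20.0% beside 6.91%), the NF-Y-type motif CCAAT in 16 genes (45.0% beside 33.8%) and the NRF1 motif in 1 gene (2.5% beside 0.782%). No match of a motif overlapped a match of another motif in these 40 windows. A match is a description of the letters and does not show binding.

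The stretches around E2F-type matches are shown because the genes they belong to moved in different directions: Bard1 and Brca2 fell in both comparisons, Xrcc6 fell in gPS, and Chek2 rose in ESC. Capitals mark the match, written 5′ to 3′ on the gene's strand, so a match on the opposite strand reads as the reverse complement. The Bard1 and Brca2 windows overlap annotation of the gene itself, the Chek2 window also that of Hscb and the Xrcc6 window also that of Desi1. The positions are chr1:71103163-71103192 (minus strand) for Bard1, chr5:150522442-150522471 (plus) for Brca2, chr5:110839820-110839849 (plus) for Chek2, and chr15:82016203-82016232 and chr15:82016312-82016341 (plus) for Xrcc6.
Bard1: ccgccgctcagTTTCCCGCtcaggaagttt
Brca2: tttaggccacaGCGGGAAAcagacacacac
Chek2: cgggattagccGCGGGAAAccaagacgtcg
Xrcc6, first match: cggggacgcacTTTCACGCatgtgcgttcg
Xrcc6, second match: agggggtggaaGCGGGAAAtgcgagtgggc
Brca2, Chek2 and the second Xrcc6 stretch hold the same 8 letters, GCGGGAAA. The same letters stood before genes that fell and before one that rose.

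Whole windows are shown for Mdm2, which fell in ESC, and Msh6, which rose in ESC, and neither window overlaps an annotated gene. The Mdm2 window (chr10:117710759-117711008, minus strand) holds an E2F-type, an NF-Y-type and an ETS-type match in that order, and the Msh6 window (chr17:87974800-87975049, plus strand) holds an NF-Y-type match. Capitals mark the matches.
Mdm2: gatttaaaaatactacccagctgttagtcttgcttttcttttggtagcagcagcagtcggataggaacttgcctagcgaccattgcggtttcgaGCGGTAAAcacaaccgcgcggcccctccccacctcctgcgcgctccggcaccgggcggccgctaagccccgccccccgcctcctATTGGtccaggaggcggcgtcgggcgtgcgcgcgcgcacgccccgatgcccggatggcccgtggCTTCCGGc
Msh6: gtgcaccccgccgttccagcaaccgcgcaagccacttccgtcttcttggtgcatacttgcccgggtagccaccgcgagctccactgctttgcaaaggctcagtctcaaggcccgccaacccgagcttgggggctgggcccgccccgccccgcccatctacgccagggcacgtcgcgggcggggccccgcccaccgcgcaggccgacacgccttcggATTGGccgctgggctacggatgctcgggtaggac
Both windows are GC-rich, at 65.6% for Mdm2 and 70.8% for Msh6.

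Nucleotide excision repair held the largest fall in the list. Ddb2, the damage-binding subunit that finds ultraviolet lesions in chromatin, had levels of 6.25, 6.52 and 6.53 in the 3 gPS lines and 6.26 and 6.34 on the ESC arrays, against 8.46, 8.56, 8.43 and 9.21 in the 4 GSC lines. Every gPS and ESC array lay more than a log2 unit below every GSC array. Ddb2 fell by 2.23 in gPS (SE 0.21, adjusted p = 7.44e-06), a 4.70-fold lower level. In ESC it fell by 2.37 (SE 0.23, adjusted p = 1.42e-05), or 5.16-fold. Of its 2 further detected probes, detected on all 4 GSC arrays and on no gPS or ESC array, 1 was at least 2.71-fold lower in gPS and at least 2.68-fold lower in ESC, and the other at least 2.25-fold and 2.22-fold lower. These bounds take the lowest detected level of each array where the probe was not detected.

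Xpc, the sensor of helix distortions in the rest of the genome, followed the same order of groups. Its levels were 6.66, 7.15 and 6.98 in gPS and 6.72 and 6.92 in ESC, against 8.48, 8.77, 8.21 and 8.69 in GSC. Xpc fell by 1.61 in gPS (SE 0.19, adjusted p = 3.79e-05) and by 1.72 in ESC (SE 0.21, adjusted p = 6.81e-05). The groups did not overlap. Ercc3 (XPB), a helicase of the general transcription factor TFIIH that opens the DNA around a lesion, had levels of 10.44, 10.57 and 10.75 in gPS and 10.91 and 10.81 in ESC, against 11.47, 11.45, 11.31 and 11.78 in GSC. It fell by 0.92 in gPS (SE 0.16, adjusted p = 0.000734) and by 0.64 in ESC (SE 0.19, adjusted p = 0.0133). The ESC call was lost without ESC 1 (adjusted p = 0.0549) or without ESC 2 (adjusted p = 0.0908), although its second probe fell in ESC by 0.96 (adjusted p over all probes = 0.00108).

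Within the same route, Ercc1 and Ddb1 had higher levels in gPS. Ercc1, which makes the incision 5′ of a lesion together with Ercc4, had levels of 8.33, 7.497 and 7.65 in gPS and 7.69 and 7.65 in ESC, against 7.14, 7.06, 7.26 and 6.91 in GSC. It rose by 0.73 in gPS (SE 0.21, adjusted p = 0.0111), and with median scaling the change was 0.22 (adjusted p = 0.438). In ESC the difference was 0.58 (SE 0.23, adjusted p = 0.0568), which passed without gPS 1 (adjusted p = 0.0142) or without gPS 2 (adjusted p = 0.0443). The difference relative to the median gene stayed above 0 with both scalings, at 0.80 and 0.61 in gPS and 0.68 and 0.44 in ESC.

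Ddb1, the partner of Ddb2 in the damage-binding complex and adaptor of the Cul4 ubiquitin ligases, had levels of 8.80, 9.05 and 8.69 in gPS and 8.51 and 9.05 in ESC, against 8.25, 8.56, 8.37 and 8.39 in GSC. Its rise in gPS was 0.45 (SE 0.18, adjusted p = 0.0494), with no overlap of gPS and GSC, and its ESC difference was 0.39 (SE 0.20, adjusted p = 0.128). The gPS call was lost without any 1 of the 4 GSC arrays (adjusted p = 0.117, 0.051, 0.094 and 0.0694 without GSC 1 to GSC 4) and without gPS 1 (0.0726) or gPS 2 (0.161). With median scaling the change was -0.02, or 0.37 relative to the median gene. Xpa, a scaffold of the incision complex, did not pass in either comparison (0.07 in gPS and 0.09 in ESC). Of the 6 tested genes of this route, 3 fell and 2 rose in gPS (30.8% and 25.6% of all genes), and 3 fell and 0 rose in ESC (29.7% and 24.9%).

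The checkpoint group held falls of a similar size. Atm, the kinase that breaks through both strands activate, had levels of 6.98, 6.60 and 6.43 in gPS and 6.52 and 6.64 in ESC, against 8.65, 8.60, 8.38 and 8.21 in GSC. The highest gPS array was more than a log2 unit below the lowest GSC array. Atm fell by 1.79 in gPS (SE 0.18, adjusted p = 1.43e-05, 3.46-fold) and fell by 1.88 in ESC (SE 0.21, adjusted p = 3e-05, 3.68-fold). Its second detected probe fell by less, 0.60 in gPS (SE 0.18, adjusted p over all probes = 0.0155) and 0.61 in ESC (SE 0.20, adjusted p = 0.0272).

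Trp53bp1 (53BP1), which binds chromatin beside breaks and favours end joining, had levels of 9.23, 9.43 and 9.01 in gPS and 9.26 and 9.10 in ESC, against 10.78, 10.71, 10.66 and 11.004 in GSC. It fell by 1.56 in gPS (SE 0.16, adjusted p = 1.72e-05) and by 1.61 in ESC (SE 0.19, adjusted p = 4.2e-05). Its second probe fell by 1.27 and 1.71. Mdm2, the ubiquitin ligase that degrades p53 and is itself a p53 target, had levels of 11.12, 10.45 and 10.92 in gPS and 10.52 and 10.03 in ESC, against 11.58, 11.05, 11.55 and 10.77 in GSC. GSC 1 and GSC 3, the lines with the highest fibroblast marker means, had the highest levels. Mdm2 fell by 0.96 in ESC (SE 0.28, adjusted p = 0.0143), a call lost without ESC 2 (adjusted p = 0.147) and with GSC 1 and GSC 3 both left out (adjusted p = 0.104). In gPS the difference was -0.41 (SE 0.25, adjusted p = 0.183), while a second Mdm2 probe fell in gPS by 0.76 (adjusted p over all probes = 0.0125).

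Chek2, the effector kinase downstream of Atm, had the highest rise among the probes used for the 34 genes. Its levels were 6.77, 6.97 and 7.57 in gPS and 7.88 and 7.74 in ESC, against 6.97, 6.26, 6.82 and 5.80 in GSC. Both ESC arrays were above all GSC arrays, whereas gPS and GSC overlapped, with GSC 1 and GSC 3 the highest GSC lines. Chek2 rose by 1.35 in ESC (SE 0.33, adjusted p = 0.00524, 2.55-fold). In gPS the difference was 0.64 (SE 0.29, adjusted p = 0.0815), which passed without GSC 1 (0.81, adjusted p = 0.0399), with GSC 1 and GSC 3 averaged (0.78, adjusted p = 0.0495) and with both left out (1.07, adjusted p = 0.0115). A second Chek2 probe rose by 0.77 in gPS (adjusted p over all probes = 0.0131) and by 0.87 in ESC (0.0136). Averaged over its 3 detected probes, Chek2 rose by 0.58 in gPS (adjusted p = 0.0337), less than by either of the probes above.

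Chek1, the effector kinase downstream of Atr, had levels of 5.85, 5.82 and 5.36 in gPS and 5.64 and 5.64 in ESC, against 5.27, 5.15, 5.50 and 4.70 in GSC. It did not pass in gPS (0.52, SE 0.21, adjusted p = 0.0561) or ESC (0.48, SE 0.24, adjusted p = 0.11). The gPS difference passed without GSC 3 (adjusted p = 0.033) or without gPS 3 (adjusted p = 0.0283), and its second probe had the opposite sign (-0.24 and -0.15, neither past the test). Of the 5 checkpoint genes tested, 2 fell and 0 rose in gPS (30.8% and 25.6% of all genes), and 3 fell and 1 rose in ESC (29.7% and 24.9%).

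**Figure D2:**
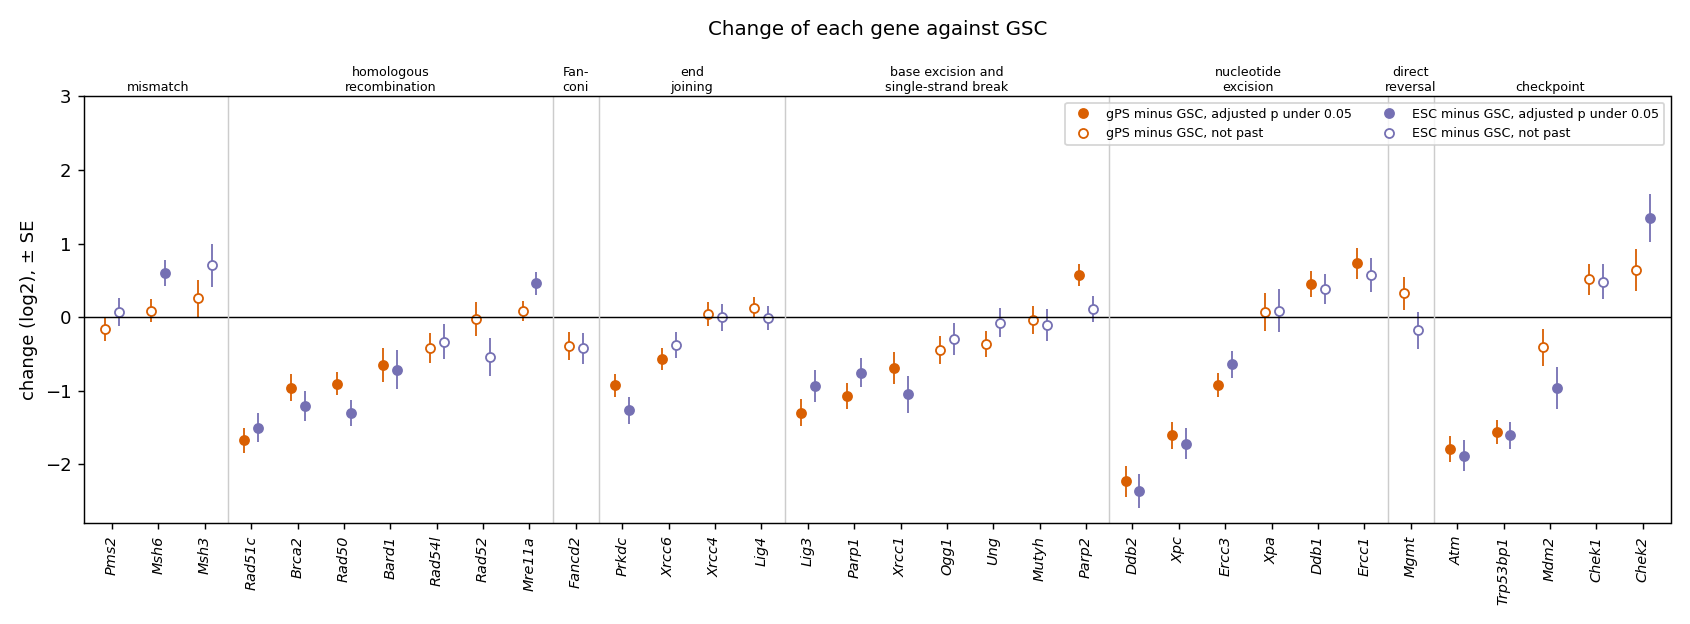
Change of each of the 34 genes tested in gPS minus GSC and ESC minus GSC (log2, points with SE bars), ordered by repair route, with filled points for an adjusted p under 0.05. The lowest points are Ddb2 at -2.23 and -2.37, and the highest is Chek2 at 1.35 in ESC.

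In homologous recombination, 4 of the 7 tested genes fell and 0 rose in gPS (30.8% and 25.6% of all genes), and 4 fell and 1 rose in ESC (29.7% and 24.9%). Rad51c, which acts in the early steps of strand exchange, had levels of 6.57, 6.72 and 7.16 in gPS and 6.88 and 7.09 in ESC, against 8.55, 8.52, 8.35 and 8.53 in GSC. The 4 GSC lines agreed within an SD of 0.09. Rad51c fell by 1.67 in gPS (SE 0.17, adjusted p = 1.65e-05, 3.19-fold) and fell by 1.503 in ESC (SE 0.20, adjusted p = 0.000103, 2.83-fold). Brca2, a mediator of strand exchange at resected ends, had levels of 7.68, 7.32 and 7.16 in gPS and 6.95 and 7.33 in ESC, against 8.34, 8.26, 8.19 and 8.59 in GSC. It fell by 0.96 in gPS (SE 0.18, adjusted p = 0.00119) and by 1.21 in ESC (SE 0.21, adjusted p = 0.000658). The groups did not overlap for either gene.

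The complex that first binds and trims broken ends is made of Rad50, Mre11a and Nbn. Rad50, its ATPase, had levels of 9.02, 8.72 and 8.63 in gPS and 8.42 and 8.36 in ESC, against 9.75, 9.55, 9.85 and 9.62 in GSC. It fell by 0.90 in gPS (SE 0.16, adjusted p = 0.000667) and by 1.30 in ESC (SE 0.18, adjusted p = 0.000145). Mre11a, its nuclease, had levels of 8.67, 8.82 and 8.82 in gPS and 9.13 and 9.16 in ESC, against 8.76, 8.61, 8.68 and 8.70 in GSC. Both ESC arrays lay above all others. Mre11a rose by 0.46 in ESC (SE 0.16, adjusted p = 0.0276), with a change of -0.01 under median scaling, and its gPS difference was 0.08 (SE 0.14, adjusted p = 0.625). With median scaling Mre11a passed in gPS in the opposite direction (change -0.40, adjusted p = 0.0424). Relative to the median gene, its difference with median scaling was -0.01 in gPS and 0.42 in ESC.

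The Mre11a call in ESC was lost without GSC 2 (adjusted p = 0.0564), GSC 3 (0.0595), ESC 1 (0.107) or ESC 2 (0.124). It was also lost with GSC 1 and GSC 3 averaged (0.0503) or left out (0.084). Of its 2 further probes, 1 rose in ESC by 0.62 (adjusted p over all probes = 0.0191) and the other did not pass, at -0.0046. Nbn, the remaining subunit, was detected on no array by any of its 3 probes.

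Bard1, the partner of Brca1 in its ubiquitin ligase, had levels of 6.47, 5.86 and 6.50 in gPS and 6.07 and 6.35 in ESC, against 6.86, 6.77, 6.64 and 7.45 in GSC. It fell by 0.65 in gPS (SE 0.23, adjusted p = 0.0342) and by 0.72 in ESC (SE 0.26, adjusted p = 0.04). Both calls rested on single arrays. In gPS the adjusted p was 0.0559 without GSC 1, 0.068 without GSC 4 and 0.145 without gPS 2. In ESC it was 0.061 without GSC 1, 0.0654 without GSC 4, 0.226 without ESC 1 and 0.0834 without ESC 2. Rad52, which anneals single strands, and Rad54l, a motor that remodels the recombination filament, did not pass in either comparison (-0.03 and -0.42 in gPS, -0.54 and -0.33 in ESC). With median scaling, Rad52 fell by 1.12 in ESC (adjusted p = 0.00586), and Rad54l by 0.86 in gPS (0.00835) and 0.78 in ESC (0.0259). Against the median gene these differences were -0.69 for Rad52, and -0.47 and -0.36 for Rad54l. Brca1 and Palb2, the bridge between Brca1 and Brca2, were detected on no array. Fancd2, the protein that is ubiquitinated when the Fanconi anaemia pathway meets a crosslink, was the single tested gene of that pathway in the list and did not pass (-0.39 in gPS and -0.43 in ESC, adjusted p = 0.095 and 0.112), except with median scaling (0.00357 and 0.00534).

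In end joining, the genes for 2 members of the DNA-dependent protein kinase were called lower in gPS, and 1 of them in ESC. Prkdc, its catalytic subunit, had levels of 6.03, 5.91 and 5.71 in gPS and 5.71 and 5.37 in ESC, against 6.67, 6.82, 6.88 and 6.86 in GSC. It fell by 0.92 in gPS (SE 0.16, adjusted p = 0.000545) and by 1.27 in ESC (SE 0.18, adjusted p = 0.000169), and its second probe fell by 0.93 and 1.42. Xrcc6 (Ku70), which with Xrcc5 encircles broken ends, had levels of 10.66, 10.63 and 10.86 in gPS and 10.86 and 10.95 in ESC, against 11.39, 11.09, 11.25 and 11.41 in GSC. It fell by 0.57 in gPS (SE 0.15, adjusted p = 0.00847), a call lost with GSC 1 and GSC 3 both left out (adjusted p = 0.0622). In ESC the difference was -0.38 (SE 0.17, adjusted p = 0.0836).

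Xrcc6 fell further than the median gene in gPS under quantile normalization (-0.50) and less so under median scaling (-0.22), and in ESC its relative difference was -0.27 and 0.04. Its 2 further probes did not pass in either comparison (-0.35 and -0.72 in gPS, -0.32 and -0.05 in ESC). Xrcc4 and Lig4, the ligase complex that seals the ends, had differences of 0.05 and 0.13 in gPS and of -0.0028 and -0.01 in ESC and did not pass. With median scaling Xrcc4 passed as lower in both, with a change of -0.46 in gPS (adjusted p = 0.0282), where the sign turned, and of -0.52 in ESC (0.03). These changes were -0.07 and -0.10 relative to the median gene. Lig4 was detected on 1 gPS array, on no ESC array and on all 4 GSC arrays. Its mean levels were 5.16 in gPS, 5.03 in ESC and 5.03 in GSC, and the lowest detected level was lower on GSC arrays. The detection counts therefore do not show a loss of Lig4. Of the 4 tested genes, 2 fell in gPS (30.8% of all genes) and 1 in ESC (29.7%), and 0 rose (25.6% and 24.9%).

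In base excision and single-strand break repair, 3 of the 7 tested genes fell and 1 rose in gPS (30.8% and 25.6% of all genes), and 3 fell and 0 rose in ESC (29.7% and 24.9%). The glycosylases Ung (uracil), Ogg1 (oxidised guanine) and Mutyh (adenine opposite oxidised guanine) did not pass, with differences of -0.36, -0.45 and -0.04 in gPS and -0.07, -0.30 and -0.10 in ESC. Ung passed in gPS without gPS 1 (adjusted p = 0.029). With the authors' processed values, Ogg1 passed in gPS (change -1.14, adjusted p = 0.0315). With median scaling, Ogg1 fell by 0.55 in gPS (adjusted p = 0.04), and Mutyh by 0.56 in gPS (0.0405) and 0.67 in ESC (0.0356). Against the median gene these differences were -0.16 for Ogg1, and -0.175 and -0.24 for Mutyh. Ogg1 was detected on no gPS or ESC array and on 3 of 4 GSC arrays, where the lowest detected level was lower. Lig3, the ligase that closes the gap, had levels of 7.89, 7.65 and 7.24 in gPS and 7.86 and 8.06 in ESC, against 9.08, 9.005, 8.67 and 8.82 in GSC. It fell by 1.30 in gPS (SE 0.19, adjusted p = 0.000184) and by 0.94 in ESC (SE 0.21, adjusted p = 0.00371), and the groups did not overlap.

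Xrcc1, the scaffold that holds Lig3 at the break, had levels of 9.05, 8.44 and 8.85 in gPS and 8.48 and 8.36 in ESC, against 9.78, 9.52, 9.61 and 8.97 in GSC. GSC 4 was the lowest GSC line and lay below gPS 1. Xrcc1 fell by 1.05 in ESC (SE 0.25, adjusted p = 0.00463) and by 0.69 in gPS (SE 0.22, adjusted p = 0.0207). It was the single gene called in gPS whose groups overlapped, so 16 of the 34 genes were both called and not overlapping (52% of all genes). The gPS call was lost without GSC 1 (adjusted p = 0.0594), GSC 3 (0.0516) or gPS 2 (0.0896), with GSC 1 and GSC 3 averaged (0.0539) and with both left out (0.171). In ESC, all 17 called genes had groups that did not overlap (54.3% of all genes).

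Parp1 and Parp2, enzymes that mark strand breaks with poly(ADP-ribose), differed in direction in gPS. Parp1 had levels of 11.53, 10.97 and 11.16 in gPS and 11.54 and 11.54 in ESC, against 12.39, 12.47, 12.08 and 12.23 in GSC. It fell by 1.07 in gPS (SE 0.18, adjusted p = 0.000447) and by 0.75 in ESC (SE 0.20, adjusted p = 0.00886). The ESC call was lost without ESC 1 (0.0551), without ESC 2 (0.0546) and with median scaling (0.0601). A second probe fell by 0.99 and 0.76, and its remaining detected probe did not pass (-0.44 in gPS, adjusted p over all probes = 0.0507, and -0.13 in ESC).

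Parp2 had levels of 10.38, 10.42 and 10.30 in gPS and 10.02 and 9.80 in ESC, against 9.62, 9.94, 9.74 and 9.89 in GSC. It rose by 0.57 in gPS (SE 0.15, adjusted p = 0.00794), a call lost with median scaling (0.34, adjusted p = 0.125) and with GSC 1 and GSC 3 left out (0.45, adjusted p = 0.0868). In ESC the difference was 0.11 (SE 0.17, adjusted p = 0.601). Its second probe gave another order of groups, with levels of 7.13, 6.94 and 6.82 in gPS and 8.53 and 8.22 in ESC, against 6.27, 6.24, 6.35 and 6.26 in GSC. By that probe Parp2 rose by 0.68 in gPS (SE 0.15, adjusted p over all probes = 0.00329) and by 2.09 in ESC (SE 0.18).

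In mismatch repair, none of the 3 tested genes was called lower (30.8% of all genes in gPS and 29.7% in ESC), 0 rose in gPS (25.6%) and 1 rose in ESC (24.9%). Msh6, which takes part in recognising single mismatches, had levels of 11.90, 11.79 and 11.96 in gPS and 12.50 and 12.30 in ESC, against 11.98, 11.59, 11.74 and 11.88 in GSC. The ESC arrays lay above all others. Msh6 rose by 0.60 in ESC (SE 0.18, adjusted p = 0.0141), a call lost without ESC 1 (adjusted p = 0.12), and its gPS difference was 0.09 (SE 0.16, adjusted p = 0.661). Its second probe rose in ESC by 0.71 (adjusted p over all probes = 0.00684).

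Msh3, which takes part in recognising insertion loops, had levels of 4.73, 5.45 and 5.96 in gPS and 6.05 and 5.60 in ESC, against 5.15, 5.16, 5.11 and 5.08 in GSC. The gPS lines differed more for Msh3 than for any other of the 34 genes (SD 0.62), and gPS 1 lay below all GSC arrays. Msh3 did not pass in gPS (0.26, adjusted p = 0.416) or ESC (0.70, adjusted p = 0.0602). It passed in gPS without gPS 1 (0.58, adjusted p = 0.0325), and in ESC without gPS 1 (adjusted p = 0.0131) or gPS 3 (0.0244). Pms2, the endonuclease that nicks the new strand, did not pass (-0.16 in gPS and 0.07 in ESC), although with median scaling it fell by 0.69 in gPS (adjusted p = 0.0105). Against the median gene that difference was -0.30. Mgmt, which removes alkyl groups from guanine in a single step, did not pass either (0.32 in gPS and -0.18 in ESC).

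**Figure D3:**
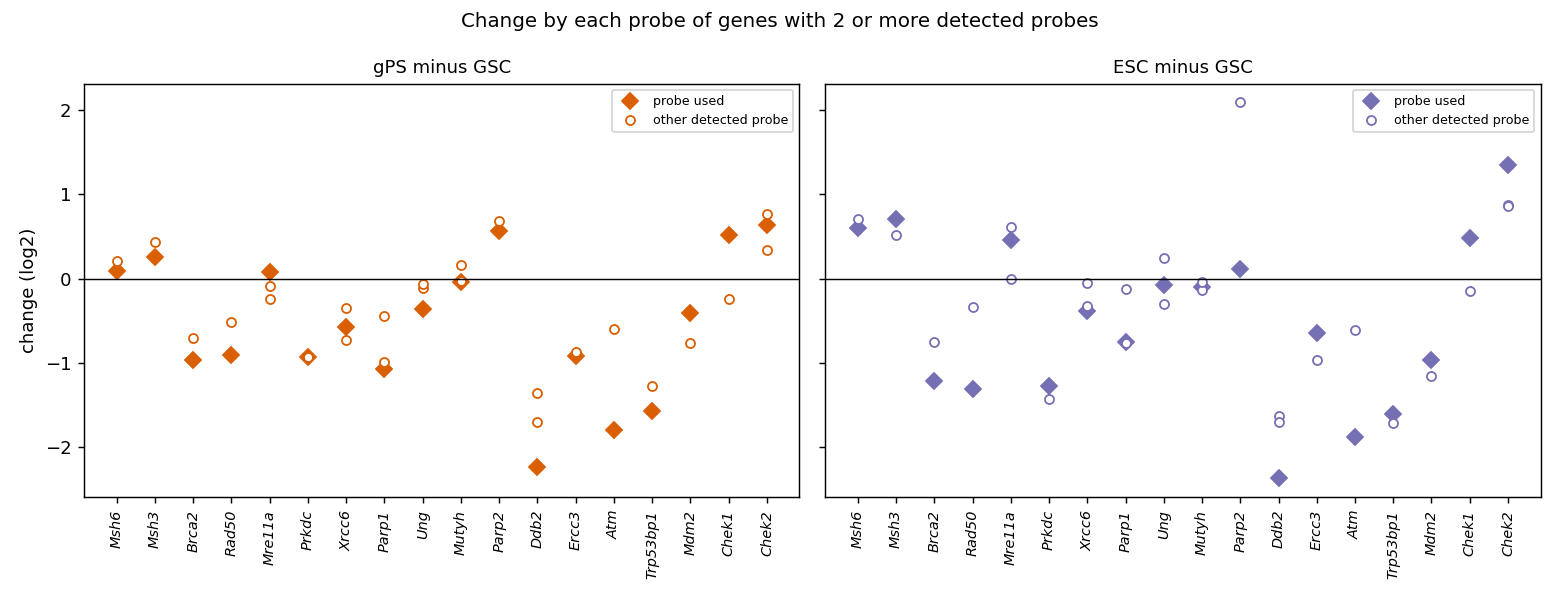
Change (log2) by each detected probe of the 18 genes with further detected probes, in gPS minus GSC on the left and ESC minus GSC on the right, with diamonds for the probe used and circles for the others. Probes of Ddb2, Trp53bp1, Prkdc, Brca2 and Ercc3 all lie below 0, and the circle of Parp2 in ESC lies at 2.09, far above its diamond at 0.11.

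Of the 17 genes called in gPS, 10 had further detected probes, 13 probes in all. All 13 had the same sign as the probe used, and 10 of them also passed the test adjusted over all probes. Of the 17 genes called in ESC, 12 had 16 further probes, of which 15 had the same sign and 13 passed. The exception in sign was an Mre11a probe at -0.0046. Mre11a, Chek1 and Mutyh had further probes of opposite sign to the probe used in gPS, and none of these genes was called there.

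Between gPS and ESC, none of the 34 genes passed limma's test (1.03% of all genes did), and 3 had an unadjusted p under 0.05 (8.82% of the 34 genes, beside 15.5% of all genes). The groups did not overlap for 12 of the 34 genes (35.3%, beside 32.6% of all genes). The 3 genes were Msh6, with a difference of -0.52 in gPS minus ESC (95% interval -0.93 to -0.11), Mre11a at -0.38 (-0.74 to -0.01) and Parp2 at 0.46 (0.06 to 0.86). Chek2 had the largest difference, -0.71 (-1.48 to 0.05). For Ddb2, Atm and Rad51c the 95% intervals ran from -0.41 to 0.68 for Ddb2 (0.13), -0.39 to 0.57 for Atm (0.09) and -0.63 to 0.29 for Rad51c (-0.17). The count of 0 does not show that the groups are alike at this size of experiment. By the second Parp2 probe, gPS was lower than ESC by 1.41 on the log2 scale (difference -1.41, SE 0.18, adjusted p over all probes = 0.00658), against the positive difference of the probe used.

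The lines of a group varied for these genes about as much as for other genes. The median SD over the 34 genes was 0.23 in gPS (n = 3), 0.13 in ESC (n = 2) and 0.20 in GSC (n = 4), beside 0.26, 0.13 and 0.22 over all genes tested. The highest SD was that of Msh3 in gPS (0.62), Mgmt in ESC (0.46) and Chek2 in GSC (0.54). GSC 4, the line with the lowest fibroblast marker mean, had the highest GSC level for 12 of the 34 genes (35% of all genes) and the lowest for 8 (32.4% of all genes). Ddb2 (9.21), Rad54l (9.84), Bard1 (7.45) and Fancd2 (9.28) were highest in GSC 4, and Chek2 (5.80), Mdm2 (10.77), Xrcc1 (8.97) and Atm (8.21) were lowest there.

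Beyond the 42 genes, 149 other genes were listed, from the same routes, from translesion synthesis and from p53 targets. Of these, 128 had a probe and 104 were tested. In gPS 25 of them were higher and 21 lower than in GSC, beside 25.6% and 30.8% of all genes. In ESC 25 were higher and 23 lower, beside 24.9% and 29.7%. With median scaling the counts were 15 higher and 43 lower in gPS and 18 higher and 39 lower in ESC. With GSC 1 and GSC 3 left out, 25 were higher and 16 lower in gPS, and 22 were higher and 11 lower in ESC. With the ESC arrays averaged, 13 were lower in ESC.

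Among p53 target genes, 7 of 17 rose and 1 fell in gPS, and 6 rose and 2 fell in ESC. Among all genes, 25.6% were higher and 30.8% lower in gPS, and 24.9% higher and 29.7% lower in ESC. Zmat3, an RNA-binding protein, had levels of 9.73, 9.004 and 9.49 in gPS and 8.74 and 8.62 in ESC, against 7.32, 6.09, 7.22 and 5.34 in GSC. It rose by 2.91 in gPS (SE 0.42, adjusted p = 0.000186) and by 2.19 in ESC (SE 0.48, adjusted p = 0.00296). GSC 1 and GSC 3 had the highest GSC levels. Bbc3 (PUMA), a cell death protein, had levels of 8.53, 8.54 and 8.41 in gPS and 8.04 and 7.90 in ESC, against 6.06, 6.20, 6.07 and 6.42 in GSC, and it rose by 2.30 (SE 0.15, adjusted p = 6.66e-07) and 1.78 (SE 0.17, adjusted p = 1.23e-05). Sesn1, a stress-response protein, fell by 1.16 in gPS (SE 0.23, adjusted p = 0.00137) and by 0.92 in ESC (SE 0.26, adjusted p = 0.0114), the ESC call being lost without ESC 2 (adjusted p = 0.139) and with GSC 1 and GSC 3 left out (0.0731). The second Sesn1 probe, detected on GSC arrays alone, differed by -0.36 in gPS and -0.30 in ESC and did not pass. Trp53 itself could not be read, and Mdm2, a p53 target among the 42 genes, was lower in ESC, as given above.

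Of 18 other checkpoint genes tested, 4 were higher and 6 lower in each comparison (all genes 25.6% and 30.8% in gPS, 24.9% and 29.7% in ESC). H2ax, the histone variant that Atm phosphorylates beside breaks, had levels of 10.002, 10.51 and 10.30 in gPS and 10.31 and 10.12 in ESC, against 7.92, 8.59, 8.08 and 9.62 in GSC. It rose by 1.72 in gPS (SE 0.35, adjusted p = 0.0017) and by 1.66 in ESC (SE 0.40, adjusted p = 0.00465), with GSC 4 far above the other GSC lines. Ppm1d, a phosphatase that reverses Atm signalling, fell by 1.64 in gPS (SE 0.17, adjusted p = 1.91e-05) and by 1.75 in ESC (SE 0.20, adjusted p = 3.51e-05). Rad9b, a subunit of an alternative checkpoint clamp, fell by 1.29 and 0.97, and Usp7, a deubiquitinase of Mdm2 and p53, rose by 0.86 and 1.07.

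In translesion synthesis, 1 of 11 genes rose and 3 fell in each comparison (all genes 25.6% and 30.8% in gPS, 24.9% and 29.7% in ESC). Ube2b (a RAD6 ubiquitin-conjugating enzyme) had levels of 8.20, 8.63 and 8.34 in gPS and 8.61 and 8.16 in ESC, against 10.40, 10.64, 10.63 and 10.61 in GSC. It fell by 2.18 in gPS (SE 0.17, adjusted p = 2.76e-06) and by 2.19 in ESC (SE 0.20, adjusted p = 7.56e-06). Rad18, the ligase that acts with it on PCNA, fell by 0.99 and 1.07. The Pcna probe, for the sliding clamp that they ubiquitinate, was below detection on all 4 GSC arrays, so that its rise was at least 1.36-fold in gPS and at least 2.66-fold in ESC (adjusted p = 0.0057 and 3.52e-05).

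**Figure D4:**
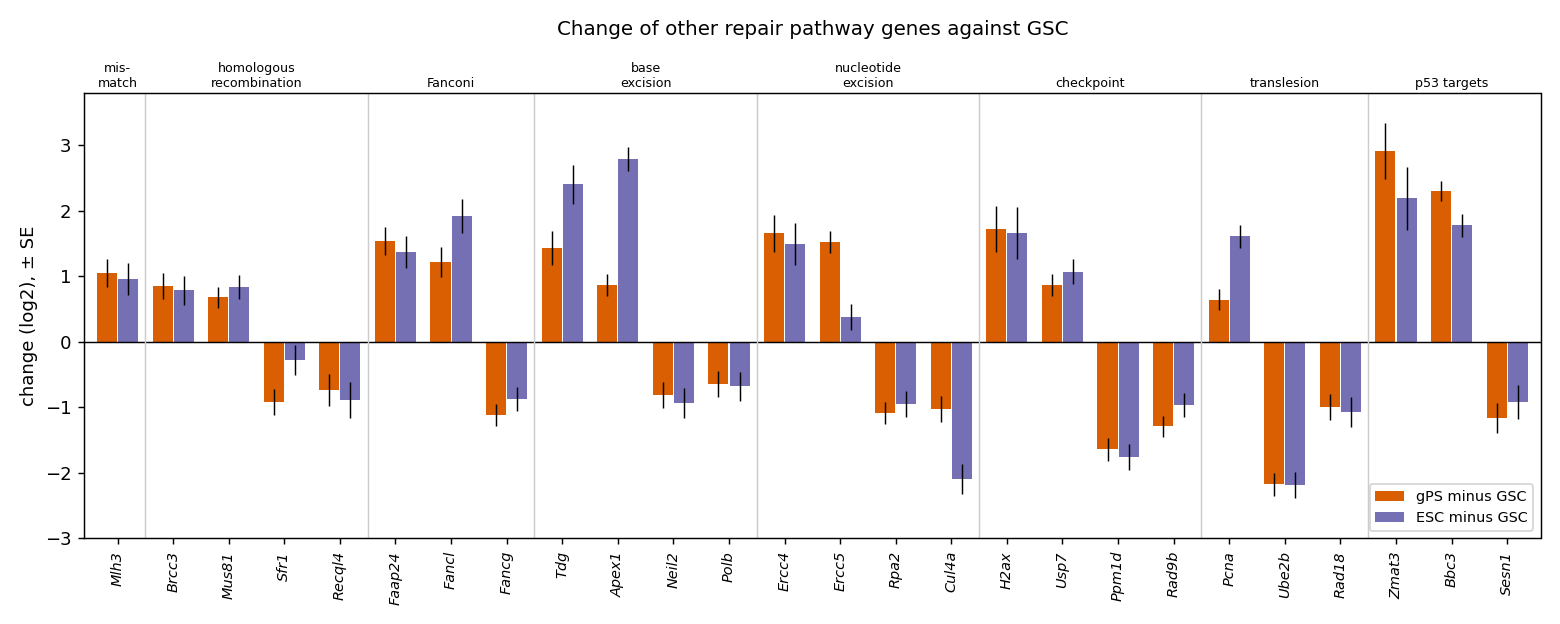
Change (log2, bars from 0 with SE) in gPS minus GSC and ESC minus GSC for the 26 other pathway genes named by rule, the 2 largest called rises and falls of each list in gPS. Zmat3 has the tallest bar in gPS (2.91) and Apex1 in ESC (2.80), and Ube2b the deepest in both (-2.18 and -2.19). The bars of Fancg, Neil2 and Pcna involve groups in which the probe was not detected.

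Other excision repair genes moved in both directions. In nucleotide excision repair, 4 of 14 rose and 3 fell in gPS (25.6% and 30.8% of all genes), and 5 rose and 3 fell in ESC (24.9% and 29.7%). Ercc4, the nuclease partner of Ercc1, rose by 1.66 in gPS (SE 0.28, adjusted p = 0.000526) and by 1.49 in ESC (SE 0.32, adjusted p = 0.00248). Ercc5, which cuts 3′ of the lesion, had levels of 8.74, 8.18 and 8.48 in gPS and 7.37 and 7.28 in ESC, against 6.91, 6.96, 6.80 and 7.11 in GSC. It rose by 1.52 in gPS (SE 0.17, adjusted p = 2.81e-05), against a difference of 0.38 in ESC (adjusted p = 0.118) that was -0.19 under median scaling, while its second probe rose by 1.43 in gPS and 1.38 in ESC. Rpa2, part of the single-strand binding protein, fell by 1.08 and 0.95, and Cul4a, the ligase scaffold that Ddb1 binds, fell by 1.02 in gPS and 2.10 in ESC. The Cul4a fall in gPS was 0.53 and did not pass when its probes were averaged (change -0.53, adjusted p = 0.102).

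In base excision repair, 2 of 12 other genes rose and 4 fell in each comparison (all genes 25.6% and 30.8% in gPS, 24.9% and 29.7% in ESC). Apex1, the main nuclease at sites without a base, had levels of 9.30, 9.76 and 9.65 in gPS and 11.50 and 11.50 in ESC, against 8.84, 8.55, 8.72 and 8.70 in GSC. It rose by 0.87 in gPS (SE 0.16, adjusted p = 0.000996) and by 2.80 in ESC (SE 0.18, adjusted p = 9.52e-07). Tdg, a thymine glycosylase that also takes part in DNA demethylation, rose by 1.43 and 2.41. Polb, the gap-filling polymerase, fell by 0.64 and 0.68, and both calls were lost without GSC 3 (adjusted p = 0.0504 in gPS and 0.0625 in ESC) and with GSC 1 and GSC 3 left out (0.083 and 0.0941). The gPS call was also lost without gPS 3 (0.0729), and the ESC call without ESC 1 (0.0736) or ESC 2 (0.15). Neil2, a glycosylase, was not detected in gPS or ESC and was at least 1.28-fold and 1.26-fold lower there, the ESC call being lost without ESC 2 (0.0768).

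In the Fanconi anaemia pathway, 3 of 8 other genes rose and 1 fell in each comparison. In homologous recombination, 3 of 15 rose and 3 fell in gPS, and 3 rose and 2 fell in ESC. In mismatch repair, 1 of 2 rose in each. Over all genes the shares were 25.6% higher and 30.8% lower in gPS, and 24.9% higher and 29.7% lower in ESC. Faap24, which targets the Fanconi core complex to DNA, rose by 1.54 and 1.37, and Fancl, its ubiquitin ligase, by 1.22 and 1.93. Fancg, a core subunit, was detected on no gPS or ESC array and was at least 1.44-fold lower in gPS and 1.42-fold lower in ESC, the ESC call being lost without ESC 2 (adjusted p = 0.0522). Mlh3, a mismatch repair protein that also acts in meiotic crossing over, rose by 1.05 and 0.96, Brcc3, a deubiquitinase of the Brca1 complex, by 0.85 and 0.78, and Mus81, a nuclease for branched DNA, by 0.68 and 0.84. These 3 rises did not pass with median scaling (adjusted p = 0.0831, 0.103 and 0.444 in gPS and 0.25, 0.262 and 0.249 in ESC), and that of Brcc3 in ESC was also lost without ESC 2 (0.118). With GSC 1 and GSC 3 left out, the ESC calls of Mlh3 (0.0538) and Brcc3 (0.059) were lost.

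Sfr1, a cofactor of recombination, fell by 0.92 in gPS and differed by -0.28 in ESC (adjusted p = 0.311). Recql4, a helicase, fell by 0.74 in gPS and 0.88 in ESC. Its gPS call was lost without GSC 1 (adjusted p = 0.0571), GSC 3 (0.059), gPS 2 (0.111) or gPS 3 (0.0752), and its ESC call without ESC 2 (0.149). With GSC 1 and GSC 3 left out, neither call held (0.146 in gPS and 0.106 in ESC). Its second detected probe had the opposite sign, at 0.19 in gPS and 0.48 in ESC, and did not pass. Averaged over its probes, Recql4 differed by -0.27 in gPS and -0.20 in ESC and did not pass. In end joining, 0 of 6 other genes were called in gPS (56.3% of all genes), and 2 fell and 0 rose in ESC (29.7% and 24.9%).

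Among the other pathway genes, 4 passed in gPS minus ESC. Apex1 was lower in gPS by 1.93 on the log2 scale (difference -1.93, SE 0.19, adjusted p = 0.0013), and its second probe differed by -0.55 and did not pass. Ercc5 was higher in gPS by 1.14 (SE 0.20, adjusted p = 0.0293), and its second probe differed by 0.05. Pcna was lower in gPS, with a difference of -0.97 (SE 0.19, adjusted p = 0.0413). Polm, a polymerase of end joining that lies outside the naming rule and was chosen after its values were seen, was not detected in ESC, which puts gPS at least 1.29-fold higher (adjusted p = 0.0297), and its second probe differed by 0.44 and did not pass.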

How the data were processed

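RNA of 9 samples was measured on 1 Illumina bead array each. The deposited table gives each probe's signal as an intensity, neither normalized nor background-subtracted, with a detection p-value per probe and array from the authors' deposited table (header "Detection"). A second deposited table holds the authors' processed values, which were read as log2 values from their range, since no base is named. BeadStudio 3.2, RMA and lumi are named in the submitters' processing notes without a role.

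The signal was corrected and quantile normalized with neqc (limma 3.58.1, R 4.3.3, offset 16, with the negative controls estimated from detection p-values). Of 25697 probes, 12695 had a detection p under 0.01 on at least 2 of 9 arrays. The platform annotation gave 23978 probes 1 gene symbol and left 1719 unnamed here. The probe with the highest mean stood for each gene, which gave 9488 genes, 738 of them unnamed probes. limma's moderated test (lmFit with a mean per group over all 9 arrays, eBayes) was adjusted by Benjamini-Hochberg over all genes at 0.05. Further probes were adjusted over all probes. Fold changes are on the log2 scale, and the number of arrays limits their precision. The limma test alone was run on simulated normalized levels, with independent noise and far fewer changed genes than were called here. It does not test the normalization between arrays.

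The 42 genes and the other lists were chosen with earlier results of these data known. Values per array are given for called genes whose groups did not overlap, and other genes beside them. Of the other pathway genes, the 2 largest called rises and 2 largest called falls of each list in gPS were named. Alternatives were no background correction, offset 50, median scaling, the authors' values, another detection filter, all probes or probe means, another variance model, a replicate block, a 2-fold minimum, and leaving out or averaging arrays.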

Additional observations from a re-analysis of the deposited data

Results flagged for a closer look

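Among 60 genes whose 4 GSC arrays were tested by Dixon's criterion, 4 had 1 line far from the others, and chance gives about 1 in 20. Tdg was at 6.57 in GSC 4, against 6.26 to 6.28 in the other lines. Cul4a was at 9.70 in GSC 2, against 9.35 to 9.36. Ube2b was at 10.40 in GSC 1, against 10.61 to 10.64, and Sesn1 at 8.06 in GSC 4, against 8.69 to 8.77.

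By the probe used, the change against GSC differed between gPS and ESC for 3 of the named pathway genes, by limma's test of the difference itself. The difference, gPS minus ESC, was -1.93 for Apex1 (adjusted p = 0.0013), 1.14 for Ercc5 (adjusted p = 0.0293) and -0.97 for Pcna (adjusted p = 0.0413). The second probes of Apex1 (-0.55) and Ercc5 (0.05) did not pass. Pcna was read by a single probe, whose gPS levels of 5.15 to 5.48 lay close to the lowest detected levels.

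The Ercc2 probe, left out of the tests by the detection filter, was detected on 1 gPS array and on no ESC or GSC array.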

How the results depend on the processing

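Of the 17 repair genes called in each comparison, 7 in gPS and 10 in ESC kept their direction and passed under all 24 other settings, including a minimum change of 1 log2 unit. With that minimum, 0 were higher and 7 lower in gPS, and 1 higher and 9 lower in ESC, and of the other pathway genes 13 were higher and 8 lower in gPS and 16 higher and 5 lower in ESC. Median scaling gave 0 repair genes higher in gPS, 15 other genes higher and 43 lower in gPS, and 39 lower in ESC. A fit of the 2 groups alone gave 5 repair genes higher in ESC. Averaging the ESC arrays gave 1 repair gene higher and 13 other genes lower, and leaving out GSC 1 and GSC 3 gave 11 other genes lower in ESC. Leaving out 1 array at a time gave 1 to 5 repair genes higher and 12 to 27 other genes lower in ESC.

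Of the called changes, 2 reversed, both with median scaling: Ddb1 in gPS (-0.0236) and Mre11a in ESC (-0.0063). With that scaling the median gene itself changed by -0.39 in gPS and -0.425 in ESC. Relative to it, Ddb1 in gPS stood at 0.37 and Mre11a in ESC at 0.42. In gPS, Mre11a stood at -0.01 and Xrcc4 at -0.07 relative to it. Among changes not past the test, median scaling reversed Msh3 (-0.0556), Mre11a (-0.40), Xrcc4 (-0.46), Lig4 (-0.15), Xpa (-0.45) and Mgmt (-0.20) in gPS, of which Mre11a (adjusted p = 0.0424) and Xrcc4 (0.0282) then passed as lower, and Pms2 (-0.505), Parp2 (-0.21), Xpa (-0.46), Ddb1 (-0.11) and Ercc5 (-0.19) in ESC. Averaging probes gave -0.0796 for Mre11a and 0.0305 for Mutyh in gPS. Leaving out GSC 1 and GSC 3 gave 0.0531 for Mutyh in gPS, and -0.0794 for Pms2, -0.0073 for Parp2 and 0.0058 for Ung in ESC. The authors' values gave 0.0023 for Xrcc4 in ESC. Leaving out 1 array at a time, the change ranged in gPS from -0.036 to 0.58 for Msh3, -0.23 to 0.13 for Rad52, -0.0174 to 0.14 for Xrcc4, -0.17 to 0.0724 for Mutyh and -0.0878 to 0.37 for Xpa. In ESC it ranged from -0.0197 to 0.13 for Pms2, -0.0658 to 0.0888 for Xrcc4, -0.0956 to 0.0797 for Lig4, -0.17 to 0.0229 for Ung, -0.24 to 0.0281 for Mutyh, -0.0506 to 0.23 for Xpa and -0.50 to 0.15 for Mgmt. The cause was not tested.

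The sources do not say whether replicate numbers pair the samples. Deviations of same-numbered arrays from their group means correlated at 0.08, -0.07 and -0.16 between gPS and GSC. Between ESC and GSC they correlated at 0.06 and -0.04. Deviations within a group depend on each other, and those of the ESC arrays mirror each other, so these values cannot decide the pairing. A replicate block gave 2 repair genes higher and 14 lower in gPS and 2 higher and 12 lower in ESC, and of the other pathway genes 26 higher and 18 lower in gPS and 24 higher and 21 lower in ESC. With the block, Rad52 (0.13), Xrcc4 (-0.0174) and Mutyh (0.0341) in gPS and Lig4 (0.0372) and Mgmt (0.0269) in ESC changed sign. Lig4, Ogg1, Chek1, Msh3, Faap24, Fancg, Neil2, Ercc4 and Pcna have no value where detection on all 9 arrays was required. Signals near background limit genes such as Lig4 and Ogg1.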

Other observations

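Of 14 tested proliferation and S phase genes, 6 were higher and 1 lower in each comparison, which share the GSC arrays. Among all genes, 25.6% were higher and 30.8% lower in gPS, and 24.9% higher and 29.7% lower in ESC. Ccne1 (cyclin E1, a partner of Cdk2 at the start of DNA replication) rose by 4.22 on the log2 scale in gPS (SE 0.18) and by 4.23 in ESC (SE 0.21). Rrm2, a subunit of the enzyme that makes deoxyribonucleotides, rose by 3.16 (SE 0.20) and 3.33 (SE 0.23), and Cdk1, the kinase of mitotic entry, by 1.34 (SE 0.17) and 1.65 (SE 0.20). E2f1, a transcription factor of S phase genes, fell by 0.78 in gPS (SE 0.22, limma adjusted p = 0.0105) and by 1.33 in ESC (SE 0.25, adjusted p = 0.00103). These genes were chosen after their values were seen.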
